A study of Mus musculus with 2 samples.

Results

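The AP-1 transcription factor family was examined in naive T cells of mouse lymph nodes. The 9 genes Fos, Fosb, Fosl1, Fosl2, Jun, Junb, Jund, Batf and Atf3 were chosen by gene symbol, and every probe set whose single platform symbol is one of them was used. That gave 13 of the 34945 probe sets with 1 symbol on the array, or 9 of 18193 genes, and 0 probe sets with several symbols held a member. The family was chosen with the difference between its signals on these same arrays already known, so the values below describe 2 preparations and support no test. The gamma/delta sample was a preparation of naive CD44- gamma/delta T cells, and the alpha/beta sample one of naive CD8+ alpha/beta T cells. Both were purified from C57BL/6 lymph nodes by negative selection, with no genotype or treatment named in the labels. Each was read on 1 Affymetrix MOE430 2.0 array, on which a probe set is a group of short oligonucleotides for a transcript. The number and age of the mice behind each preparation are not given in the labels, whose design text names the 2 T cell lineages as the comparison. With 1 array per group no SD between samples, standard error or p-value exists, and precision is limited by the number of arrays.

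AP-1 is a dimer of basic leucine zipper (bZIP) proteins. Jun proteins can pair with each other or with Fos proteins, while Fos proteins need a Jun partner, and the Fos-Jun dimer binds the DNA element TGACTCA. In T cells the antigen receptor drives AP-1 through MAP kinases: ERK acts on ternary complex factors that sit with serum response factor at the Fos promoter, and JNK phosphorylates Jun. Fos, Fosb, Jun and Junb are immediate early genes, whose short-lived transcripts rise within minutes of a stimulus without new protein synthesis. AP-1 binds together with NFAT at cytokine genes, and Batf, a bZIP protein without an activation domain of its own, binds with Jun proteins and IRF4 and is required for IL-17-producing helper T cells.

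RefSeq promoter windows were found for 8 members, Fosl1 having none in the table. The 250 bases before the annotated start are shown for Fos, Fosb, Jun and Junb, the members that differed most between the arrays, and for Atf3, which lay in the background on both arrays. All positions are those of GRCm38.p6. The Fos bases are chr12:85473640-85473889 on the plus strand, and the Fosb bases chr7:19310046-19310295 on the minus strand. Those of Jun are chr4:95052223-95052472, of Junb chr8:84978749-84978998 and of Atf3 chr1:191183334-191183583, all on the minus strand. Each is printed 5′ to 3′ along its gene, and capitals mark the TATA box letters TATAAA, the box CCAAT, the element TGACATCA and the half-site TGACG. On the other strand the half-site reads CGTCA.
Fos: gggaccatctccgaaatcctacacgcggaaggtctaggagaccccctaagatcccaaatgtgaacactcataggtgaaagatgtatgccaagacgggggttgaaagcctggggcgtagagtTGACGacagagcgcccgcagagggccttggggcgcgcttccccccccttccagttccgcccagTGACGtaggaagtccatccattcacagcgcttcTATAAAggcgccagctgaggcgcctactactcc
Fosb: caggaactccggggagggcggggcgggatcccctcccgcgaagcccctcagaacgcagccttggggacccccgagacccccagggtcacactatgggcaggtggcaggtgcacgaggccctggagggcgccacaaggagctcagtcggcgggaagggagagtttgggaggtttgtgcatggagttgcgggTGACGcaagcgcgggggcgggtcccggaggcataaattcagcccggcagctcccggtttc
Jun: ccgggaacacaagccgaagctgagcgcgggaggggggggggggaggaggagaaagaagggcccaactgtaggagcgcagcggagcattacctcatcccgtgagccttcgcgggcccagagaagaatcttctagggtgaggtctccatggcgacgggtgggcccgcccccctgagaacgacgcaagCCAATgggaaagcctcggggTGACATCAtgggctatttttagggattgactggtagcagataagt
Junb: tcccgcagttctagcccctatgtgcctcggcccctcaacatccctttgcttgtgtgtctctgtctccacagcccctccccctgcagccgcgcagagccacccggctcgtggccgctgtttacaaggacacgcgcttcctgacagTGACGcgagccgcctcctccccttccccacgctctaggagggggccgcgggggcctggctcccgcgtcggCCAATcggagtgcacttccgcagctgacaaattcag
Atf3: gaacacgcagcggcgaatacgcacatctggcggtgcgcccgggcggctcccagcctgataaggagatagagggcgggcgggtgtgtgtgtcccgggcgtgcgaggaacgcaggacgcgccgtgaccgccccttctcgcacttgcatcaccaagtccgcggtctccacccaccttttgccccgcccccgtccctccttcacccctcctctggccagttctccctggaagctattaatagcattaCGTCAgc

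The windows were searched on both strands over 300 bases, of which 50 follow the start. The half-site TGACG, the core of the cyclic AMP response element bound by CREB, ATF and some AP-1 dimers, was held by 5 of the 8 members, against 20.8% of all 32851 windows. It stood 66 to 62 and 129 to 125 bases before the start of Fos, 60 to 56 before that of Fosb and 106 to 102 before that of Junb. Batf (98 to 94 bases before) and Atf3 (7 to 3 before, on the other strand) held it as well, so the letters were present in members that were high and in members that were not. In Fosb it was part of TGACGCAA, held by 0.49% of all windows. Jun held TGACATCA, the form of the AP-1 element through which the human gene's promoter is bound by Jun itself, 45 to 38 bases before its start, as did 3.62% of windows. The TATA box letters TATAAA, in 13.6% of all windows, stood 33 to 28 bases before the start of Fos and at bases 1 to 6 after the annotated start of Junb. CCAAT, in 37.4% of windows, stood 65 to 61 bases before the start of Jun and 36 to 32 before that of Junb. In Atf3 it lay at bases 6 to 10 after the start, on the other strand and outside the printed bases. The full element TGACGTCA (1.79% of windows), the AP-1 element TGACTCA (5.2%) and the CArG box that serum response factor binds (1.63%) were found in 0 of the 8 windows. Bases further from the start were not searched, so whether a promoter such as that of Fos holds these elements there is not shown. The windows of Fosl2 and Jund held none of the motifs searched. Of these motifs, TGACG, which TGACGTCA and TGACGCAA contain, and TGACATCA were added with the printed windows in view.

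The values are MAS5 signals in linear scaled units. A signal under 243.3, the higher of the 2 arrays' medians and used as a floor, carries little order and was raised to it before the log2 ratio, gamma/delta over alpha/beta, was formed. Where 1 array was under the floor, only a bound is left ("at least"), and one dim on both arrays is given no ratio. Calls were made at 2-fold. Signals of different probe sets are not compared with each other, because each binds with its own strength. In an RNA extract of many cells, fewer cells with a transcript and less of it per cell cannot be told apart.

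Of the Fos genes, Fos itself had the widest gap. Its 1 probe set read 28220 in gamma/delta cells, against 306 in alpha/beta cells, a ratio of 92.2-fold (log2 ratio 6.53). The alpha/beta signal lay just above the floor, at 1.26 times it, so the size of the fold rests on a dim value, while the gamma/delta signal lay 116 times above the floor. With signals under the floor raised to it, this was the highest log2 ratio of the 11914 genes with one, and the next in order were the T cell receptor gamma segments Trgv4 (at least 51.5-fold) and Trgv1 (at least 38.8-fold). Both of these are bounds, so their true ratios may be above that of Fos.

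Fosb, which takes the place of Fos in dimers with Jun proteins, read 989 in gamma/delta cells, against 188 in alpha/beta cells. The alpha/beta signal was under the floor, which puts its ratio at 4.06-fold or more (log2 ratio of at least 2.02). Fosl2, which encodes Fra-2, a Fos protein without the strong activation domain of Fos, differed less. Its brighter probe set read 1757 in gamma/delta cells, against 1256 in alpha/beta cells, a ratio of 1.40-fold that was not called. The other probe set of Fosl2 read 238 in gamma/delta cells, against 196 in alpha/beta cells, both just under the floor. Fosl1, which encodes Fra-1, was in the background by both of its probe sets. One read 30.2 in gamma/delta cells, against 5.41 in alpha/beta cells, and the other 19.6 in gamma/delta cells, against 26.0 in alpha/beta cells, so that they even point opposite ways at a level where order means little.

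**Figure D1:**
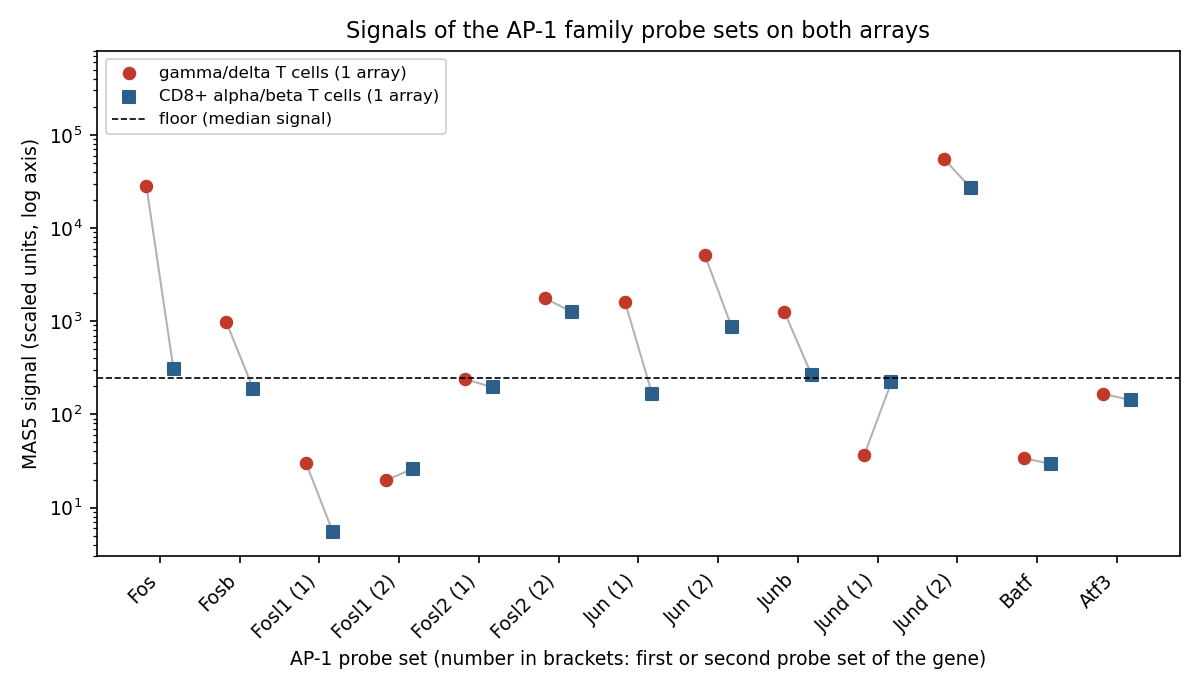
MAS5 signal (log axis, scaled units) of each of the 13 AP-1 probe sets in gamma/delta T cells (circles) and CD8+ alpha/beta T cells (squares), with 1 array each and a line joining the 2 signals. The dashed line is the floor of 243.3. Fos stands at 28220 in gamma/delta cells against 306 in alpha/beta cells, both probe sets of Jun are higher in gamma/delta cells, and those of Fosl1, Batf and Atf3 lie under the floor on both arrays.

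All 3 Jun genes were higher in gamma/delta cells by the probe set used for the gene. Jun, the partner that the Fos proteins pair with and a target of JNK, was read by 2 probe sets. The brighter, used for the gene, read 5185 in gamma/delta cells, against 861 in alpha/beta cells, a 6.02-fold higher signal (log2 ratio 2.59). The dimmer read 1626 in gamma/delta cells, against 167 in alpha/beta cells, which is at least 6.68-fold (log2 ratio of at least 2.74). Both probe sets were called higher in gamma/delta cells, and how far apart their ratios lie is not known, because that of the dimmer is a bound. Junb, which activates some AP-1 targets more weakly than Jun and can oppose it, read 1260.3 in gamma/delta cells, against 266 in alpha/beta cells with the single probe set that reads it. That is 4.74-fold (log2 ratio 2.24), with the alpha/beta signal at 1.09 times the floor.

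Jund, the Jun protein that resting cells make without a stimulus, gave a bright signal in both cell types. The probe set used for the gene read 55407 in gamma/delta cells, against 26757 in alpha/beta cells, a ratio of 2.07-fold (log2 ratio 1.05) that only just passed the call. Among 334 probe sets with a signal of at least 10000 on both arrays, 3 were called higher in gamma/delta cells, those of Kbtbd11, Zfp36l2 and Jund, and 9 lower. The median log2 ratio of these bright probe sets was -0.16, with the 5th and 95th percentiles at -0.75 and 0.60. The other probe set of Jund read 36.6 in gamma/delta cells, against 220.4 in alpha/beta cells, under the floor on both arrays and with the opposite order. When the log2 signals of both probe sets were averaged before the floor was applied, Jund had a log2 ratio of -0.77. The median of its probe set ratios stayed at 1.05, because the dim probe set has none. The direction of Jund thus depends on whether the dim probe set is counted, and which of the 2 reads the transcript is not shown.

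Batf read 34.0 in gamma/delta cells, against 29.4 in alpha/beta cells, and Atf3, a bZIP factor induced by stress that pairs with Jun proteins, 167 in gamma/delta cells, against 142 in alpha/beta cells. All of these signals were below the floor, so neither gene has a ratio. Batf lies near Fos on chromosome 12, with Jdp2, another bZIP gene, as the 1 protein-coding gene between them in the RefSeq annotation. The 3 neighbours differed in what was measured: Fos was 92.2-fold higher in gamma/delta cells, Jdp2, a repressor that competes for AP-1 elements, read 401 in gamma/delta cells, against 14.7 in alpha/beta cells (at least 1.65-fold, not called), and Batf was in the background. Batf3, which is separated from Atf3 on chromosome 1 by 1 protein-coding gene, read 173 in gamma/delta cells, against 143 in alpha/beta cells, also under the floor.

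Across the family, 5 of the 6 genes with a ratio were called higher in gamma/delta cells (Fos, Jun, Junb, Fosb and Jund) and 0 lower, and their median log2 ratio was 2.13. Over all genes with a ratio 5.82% were called higher and 3.93% lower, and the median was 0.03. By probe set, 6 of the 7 with a ratio were called higher and 0 lower, where over all probe sets with 1 symbol and a ratio 5.2% were called higher and 4.37% lower. These shares stand beside the family's counts only as the level of the array, since the family was chosen with its values known. Fosb and 1 probe set of Jun had a ratio only through the gamma/delta array, so they could only be high there. The remaining 3 genes and 6 probe sets were dim in both cell types, below the floor. The called gene nearest to 2-fold was Jund at 2.07-fold, and the 1 gene with a ratio that was not called was Fosl2 at 1.40-fold.

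**Figure D2:**
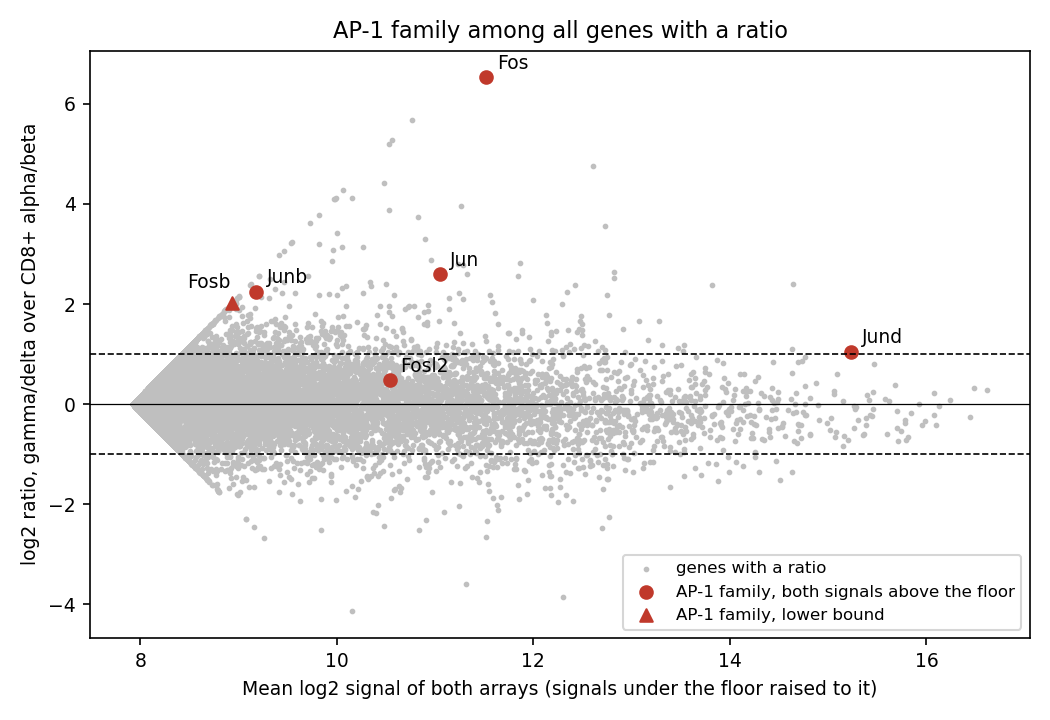
Log2 ratio of gamma/delta over CD8+ alpha/beta signals against the mean log2 signal of both arrays, for the 11914 genes with a ratio (grey) and the 6 AP-1 genes among them (red, with a triangle for a lower bound). Dashed lines mark 2-fold. Fos is the uppermost point at 6.53, Jun, Junb and Fosb lie between 2.02 and 2.59, and Jund and Fosl2 at 1.05 and 0.48.

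The genes next to the members in the order of log2 ratios over these 2 arrays were of several kinds. Next to Jun were Sla, an adaptor that dampens T cell receptor signalling (6.25-fold), the granule gene Nkg7 (6.04-fold), the granzyme gene Gzma (at least 5.93-fold) and Tnfaip3, an inhibitor of NF-kB (5.92-fold). Next to Junb were Tnfsf11 (4.91-fold), Gbp7, an interferon-induced GTPase (4.75-fold), the folate enzyme gene Mthfd1 (4.68-fold) and the tetraspanin gene Cd82 (4.67-fold). Next to Fosb were Mtmr4 (4.14-fold), Trim13 (4.07-fold), Dnajb2 (at least 4.06-fold) and the DNA repair gene Xrcc5 (at least 4.02-fold). Fosb, Gzma, Dnajb2 and Xrcc5 stand in this order by bounds that the floor sets, so their true places may be higher.

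Genes that control Fos and Jun transcription were mostly under 2-fold. Of 9 serum response and ternary complex factor genes, all with a ratio, 3 were called higher in gamma/delta cells and 0 lower. The list's median log2 ratio was 0.26, and of all genes with a ratio 5.82% were called higher and 3.93% lower. Elk3, a ternary complex factor, read 2084 in gamma/delta cells, against 669 in alpha/beta cells (3.11-fold). Srf, which encodes serum response factor, read 724 in gamma/delta cells, against 324 in alpha/beta cells (2.24-fold), and Elk1, a ternary complex factor and ERK target, 528 in gamma/delta cells, against 125 in alpha/beta cells (at least 2.17-fold). The 4 probe sets of Elk3 with a ratio ran from -0.34 to 1.64 on the log2 scale. Of 18 MAP kinase cascade genes with a ratio, out of 24 measured, 1 was called. It was Map3k5, which encodes the stress-activated kinase ASK1, with 17577 in gamma/delta cells, against 5593 in alpha/beta cells (3.14-fold) and probe sets from 0.21 to 1.65. The median of that list was 0.08, and the JNK genes Mapk8 and Mapk9 had log2 ratios of 0.09 and 0.67. Of 11 genes for regulators of AP-1 protein and activity, Det1, part of a ubiquitin ligase complex that marks Jun for degradation, was the 1 called (at least 2.10-fold, higher on the gamma/delta array), and the median was -0.19. A floor at the 70th percentile ended the calls of Srf, Elk1 and Det1. Averaging the probe sets of a gene ended all 5 calls in these lists, with Elk3 and Map3k5 at log2 ratios of 0.47 and 0.93. Elk1 and Det1 had a ratio only through the gamma/delta array, so they could only be high there.

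Genes of proteins that share DNA elements or dimers with AP-1 went both ways. Of 24 other bZIP genes with a ratio, out of 31 measured, 3 were called higher in gamma/delta cells and 2 lower. The list's median log2 ratio was 0.14, and of all genes with a ratio 5.82% were called higher and 3.93% lower. Higher were Maf (9.86-fold, with probe sets from 0.32 to 3.30) and Xbp1, a factor of the unfolded protein response (2.27-fold, with probe sets from 0.47 to 1.18). Nfil3 was also called higher (at least 2.06-fold), but its alpha/beta signal was under the floor, so it could only be high. Lower were Bach2, a repressor that competes with AP-1 at its elements in T cells, with 1167 in gamma/delta cells, against 7351 in alpha/beta cells (6.30-fold), and Nfe2l2 (2.03-fold, with probe sets from -1.02 to 0.13). Among the 5 NFAT and IRF genes, Nfatc2 was called higher in gamma/delta cells (2.10-fold, with probe sets from -0.40 to 1.07). Nfatc1, Nfatc3 and Irf4, the partner of Batf, had log2 ratios of -0.50, -0.77 and -0.93, and Irf8 had a bound of 0.07. Xbp1 and Nfil3 were no longer called under a 70th percentile floor, and Nfe2l2 (log2 ratio -0.45) and Nfatc2 (0.37) were no longer called with probe sets averaged.

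Immediate early genes outside the family were called in both directions. Of 36 with a ratio, out of 42 measured, 12 were called higher in gamma/delta cells and 5 lower, where the calls over all genes were 5.82% higher and 3.93% lower. The list's median log2 ratio was 0.22. The largest upward differences were in Dusp5, a phosphatase of ERK (21.3-fold), Socs3, an inhibitor of cytokine signalling (15.6-fold), Rgs1, a regulator of G protein signalling (at least 12.2-fold), and Tnfaip3. Lower were Nr4a3 (5.39-fold, with probe sets from -2.43 to 0.20) and Ccn1 (2.46-fold). So were the kinase genes Sgk1 (2.32-fold) and Pim1 (2.27-fold), and Egr2 (2.09-fold). The narrower list of Egr and Nr4a factors, also targets of MAP kinase and calcium signals, had 6 genes with a ratio. Egr1 (5.74-fold) and Nr4a1 (at least 3.97-fold) were called higher there, and Nr4a3 and Egr2 lower. Rgs1 and Nr4a1 had a ratio only through the gamma/delta array, so they could only be high there. Of 13 MAP kinase phosphatase and Sprouty genes with a ratio, Dusp5, Dusp1 (5.22-fold), Dusp6 (3.33-fold) and Dusp10 (2.04-fold, with probe sets from -0.13 to 1.03) were called higher and 0 lower. These Dusp genes are also in the immediate early list and are among the 12 called higher there. The heat shock list had 1 called gene of 11 with a ratio, Hspa5, a chaperone of the endoplasmic reticulum (3.37-fold higher in gamma/delta cells), and a median of 0.00. With probe sets averaged, Nr4a3 had no ratio and Ccn1, Pim1 and Dusp10 had log2 ratios of -0.08, -0.63 and 0.45. Without probe sets whose names end in _x_at, _s_at or _a_at, which may bind several transcripts, Socs3 and Hspa5 had no ratio.

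Genes described in other settings as AP-1 targets were mostly not called. Of 34 measured, 16 were below the floor in both cell types, and of the other 18 there were 4 called higher in gamma/delta cells and 0 lower, where 5.82% of all genes were called higher, and the list's median log2 ratio was 0.37. The 4 were S100a6 (at least 17.2-fold), S100a4 (at least 17.1-fold), the galectin gene Lgals1 (5.21-fold) and Gstp1, a glutathione transferase gene (3.45-fold). S100a6 and S100a4 had a ratio only through the gamma/delta array, so they could only be high there. Of the 4, S100a4 alone kept a ratio when the probe set names marking several transcripts (_x_at, _s_at and _a_at) were left out. Cd69, an activation marker induced through AP-1, was not higher in gamma/delta cells. It read 17258 in gamma/delta cells, against 18670 in alpha/beta cells (log2 ratio -0.11). Il2, the cytokine gene that NFAT and AP-1 switch on together, read 492 in gamma/delta cells, against 486 in alpha/beta cells (log2 ratio 0.02). Tnf lay under the floor on both arrays. Il17a read 521 in gamma/delta cells, against 298 in alpha/beta cells (log2 ratio 0.81, not called). Among the 18 genes with a ratio, 12 lay above 0 and 6 below.

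**Figure D3:**
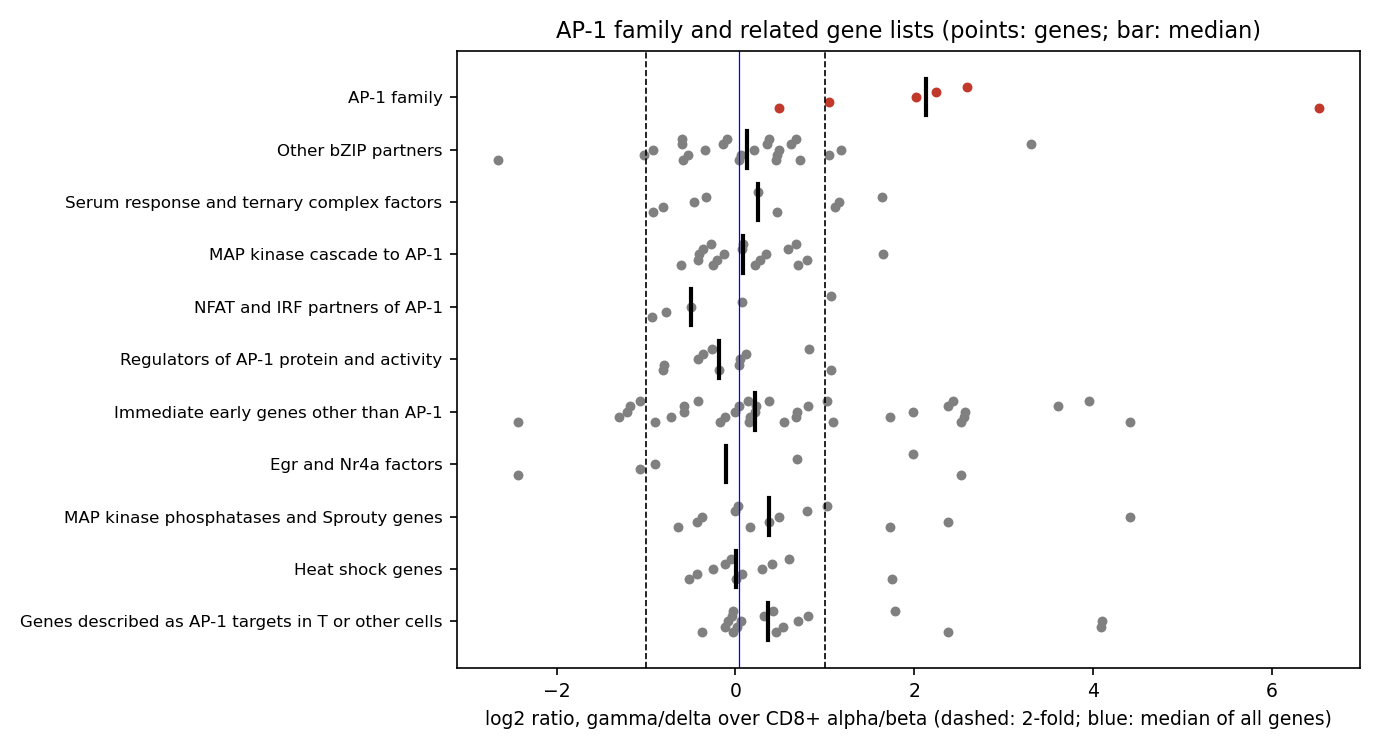
Log2 ratio of gamma/delta over CD8+ alpha/beta signals of each gene with a ratio, for the AP-1 family (red) and 10 related lists (grey), with a bar at each list's median. The dashed lines mark 2-fold and the blue line the median of all genes, 0.03. The median of the AP-1 family stands at 2.13 and those of the other lists between -0.50 and 0.38, and each list spans a range of ratios. Some genes are shared between lists.

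The labelled cell types were checked by their markers. All 6 measured gamma/delta markers were called higher on the gamma/delta array and lay under the floor on the alpha/beta array: besides Trgv4 and Trgv1 these were Cd163l1 (at least 36.9-fold), 5830411N06Rik (at least 17.5-fold), Sox13 (at least 4.47-fold) and Blk (at least 2.60-fold). All 6 had a ratio only through the gamma/delta array, so they could only be high there. Of the 5 measured markers of CD8+ alpha/beta cells, 3 were called lower and 0 higher in gamma/delta cells. Cd8a read 731 in gamma/delta cells, against 8852 in alpha/beta cells, and the log2 ratios of Cd8b1 and Trav9d-3 were -2.52 and -1.95. The other two ran the opposite way without a call, Trbv1 at 0.18 and Tcra at 0.64 or more. Summed signals of B cell markers were 7900 in gamma/delta cells, against 6748 in alpha/beta cells. Of 9 with a ratio 0 were called, though 7 lay above 0, with a median log2 ratio of 0.33. Ebf1 read 3331 in gamma/delta cells, against 2650 in alpha/beta cells, and Ms4a1 858 in gamma/delta cells, against 616 in alpha/beta cells, while Cd79a, Pax5, Cd22 and Cd74 were under the floor on both arrays. The 2 B cell markers below 0, H2-Aa and Fcer2a, had the largest absolute log2 ratios of that list, at -0.73 and -0.65. Myeloid and dendritic markers summed to 5325 in gamma/delta cells, against 4142 in alpha/beta cells, with 0 of 6 called. Cst3, which carried most of that gap, read 2787 in gamma/delta cells, against 1691 in alpha/beta cells, and Fcgr3 and S100a9 had log2 ratios of 0.12 and -0.43, while Lyz2, Csf1r, Cd14 and S100a8 were below the floor in both. NK cell markers summed to 2558 in gamma/delta cells, against 1234 in alpha/beta cells, with Gzma the 1 called of 3 and Ncr1 and Tyrobp below the floor in both cell types. Gzma alone carried that gap, with 1442 in gamma/delta cells, against 73.4 in alpha/beta cells. The latter was under the floor, so Gzma could only be high in gamma/delta cells. Eomes and Prf1, the others with a ratio, had log2 ratios of 0.33 and 0.37. For the helper and regulatory T cell markers, Ctla4 alone had a ratio (-0.03), and Cd4, Foxp3, Cd40lg and Zbtb7b lay under the floor. The 5 erythroid and platelet markers (Hba-a1, Alas2, Pf4, Ppbp and Itga2b) lay under it too, and 0 of 9 stromal markers with a ratio were called. The ratio of 3′ to 5′ signal, which rises as RNA degrades, was 6.99 in gamma/delta cells, against 3.12 in alpha/beta cells for actin. For the other two controls it ran the opposite way, at 3.06 in gamma/delta cells, against 3.24 in alpha/beta cells for Gapdh, and at 3.97 in gamma/delta cells, against 4.47 in alpha/beta cells for the transferrin receptor. The part of these differences in the AP-1 values was not tested.

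**Figure D4:**
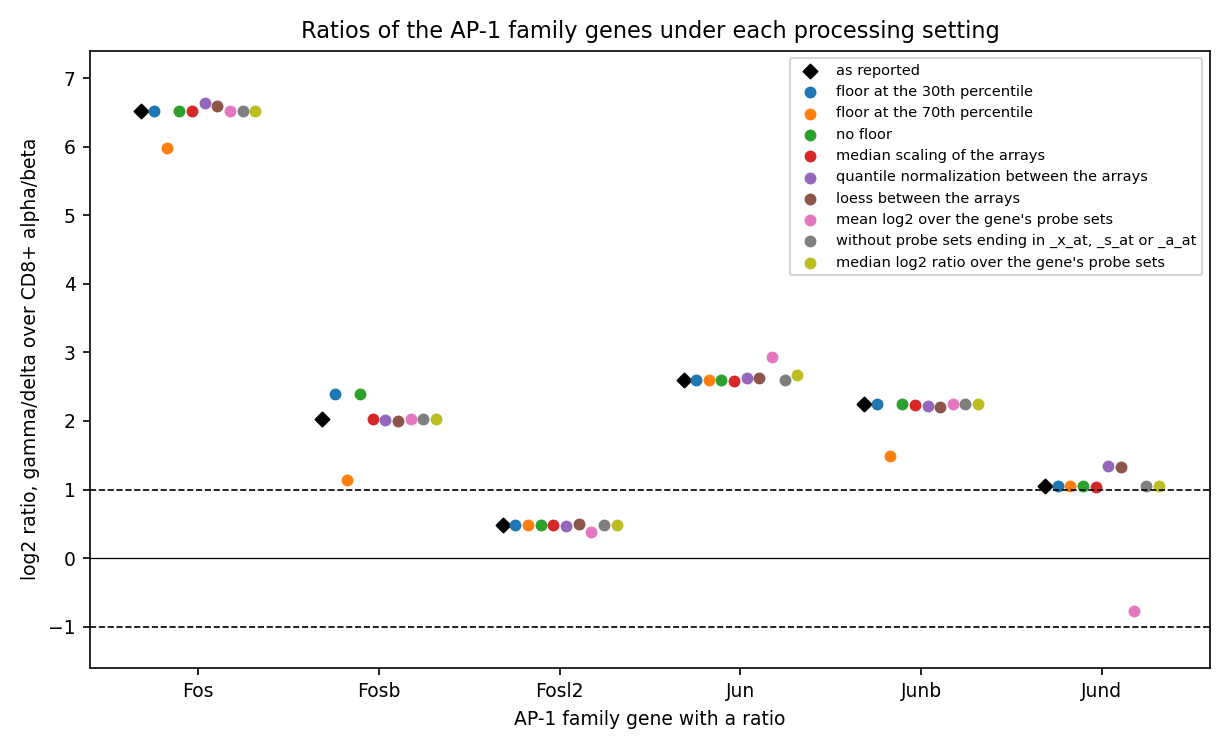
Log2 ratio of gamma/delta over CD8+ alpha/beta signals of the 6 AP-1 genes with a ratio, as reported (diamonds) and under 9 other processing settings (circles), with dashed lines at 2-fold. Fos, Fosb, Jun and Junb stay above 1 in all 10, Fosl2 stays between 0.38 and 0.49, and Jund falls to -0.77 where its probe sets are averaged.

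Under the 9 other settings plotted and the reported one, the log2 ratio of Fos ran from 5.98 to 6.63 and that of Jun from 2.58 to 2.94. Junb ran from 1.49 to 2.24 and Fosb from 1.14 to 2.40, each lowest with the floor at the 70th percentile, which lies above their alpha/beta signals. Fos, Fosb, Jun and Junb were called higher in gamma/delta cells in all 10, Jund in 9 of 10 and Fosl2 in 0.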

How the data were processed

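RNA of 1 gamma/delta and 1 CD8+ alpha/beta T cell preparation was measured on 1 array each. The deposited table holds a linear intensity for each probe set of each array. The submitters' processing notes name MAS5 and Affymetrix Expression Console 1.0 as the authors' software. The trimmed mean without 2% at each end was 500.003 on both arrays, so the deposited intensities had been scaled before. They were used as deposited, since trimmed means without the 64 controls differed by under 1%.

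Gene symbols came from the platform annotation, and the gene IDs of all 9 members matched RefSeq (GRCm38.p6) with the same symbol. A gene took the probe set whose mean log2 signal was highest, and the floor and the call are those given in the report. Related lists were described by counts and medians. Named genes were all members, up to 4 called genes per direction and list, lists of 6 or fewer in full, and the 2 genes next above and below Fos, Jun, Junb and Fosb in the order of ratios. Any other gene was named with its value in view. The members and lists were chosen with earlier results of these data known. The computation of ratios and calls was checked on simulated signals with known ratios. Computations used Python 3.11.15, numpy 2.4.6, pandas 2.3.3, scipy 1.17.1 and statsmodels 0.14.6. Alternatives were floors at the 30th and 70th percentile and none, median, quantile and loess scaling (span 0.3), 3 other rules for a gene's value, and calls at 1.5- and 4-fold. Proteins were not compared, and scanner files and detection calls were not used here.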

Additional observations from a re-analysis of the deposited data

How the results depend on the processing

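No paired analysis was possible because each group has 1 array. The reported counts of AP-1 genes and probe sets called higher in gamma/delta cells (5 and 6) stayed within 1.5 times under every alternative run, calls at 1.5- and 4-fold included. The family's median log2 ratio of 2.13 was 1.32 under a floor at the 70th percentile, where Fos, Junb and Fosb have only bounds, and 1.05 with no floor, where all 9 genes enter. With no floor 1 AP-1 probe set was called lower, that of Jund with signals of 36.6 in gamma/delta cells, against 220.4 in alpha/beta cells. Jund reversed to -0.77 with probe sets averaged, which gives that dim probe set equal weight. A count over 7 of the related lists left out the Egr and Nr4a, the MAP kinase phosphatase and Sprouty, and the heat shock lists. Of its 120 genes with a ratio, 25 were called higher and 7 lower as reported, 38 and 20 at 1.5-fold and 12 and 2 at 4-fold. Of all genes with a ratio 5.82% were called higher and 3.93% lower as reported. With no floor 40 and 17 of 155 were called. Over all 11914 genes with a ratio the calls higher and lower were 693 and 468 as reported, 2025 and 1578 at 1.5-fold and 81 and 22 at 4-fold. They were 1320 and 1008 of 15421 under a 30th percentile floor and 396 and 284 of 7612 under a 70th percentile floor. With no floor they were 2917 and 2593 of 18193. With probe sets averaged, 459 of 9567 genes were called higher. Upward calls made up 59.7% of all calls as reported and 78.6% at 4-fold. Signals near or under the floor limit what can be said of Fosl1, Batf and Atf3.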
